A study of Mus musculus with 32 samples.

Results

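The genes described here are 9 that mark the 2-cell-like state of mouse embryonic stem cells: the 6 Zscan4 copies (Zscan4a, Zscan4b, Zscan4c, Zscan4d, Zscan4e and Zscan4f), Zfp352, Tcstv1 and Tcstv3. They were taken by symbol from the 55573 genes of the deposited tables, and all 9 were found. Their levels were compared between mouse embryonic stem cell (ESC) clones that carry either of 2 Smarce1 alleles, and between ESC and neural cells made from 4 of the same clones.

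Zscan4 genes encode zinc finger proteins with a SCAN domain that are switched on in the 2-cell embryo, when the mouse genome starts to be transcribed. In ESC cultures a small and changing fraction of cells re-enters a state like that of the 2-cell embryo, and these cells carry most of the culture's Zscan4 RNA. Zscan4 is known for its role in telomere maintenance in ESC. Zfp352, a zinc finger gene, and the Tcstv genes, which lie together on another chromosome, are transcribed in the same embryonic stage and in the same rare cells, and the transcription factor Dux is an upstream activator of this set.

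Smarce1 is the gene of BAF57, which belongs to the SWI/SNF (BAF) chromatin remodelling complexes. The labels name the alleles Smarce1-MD and Smarce1-MD(R42A). MD is read here, from general knowledge of such constructs, as a mitotic degron, a tag that directs loss of the protein during mitosis, and R42A as its inactive form, since the labels do not spell either out. All lines are of strain 129S5/SvEvBrd. ESC were grown in Knockout DMEM with fetal bovine serum and LIF on gelatin, without feeder cells named in the labels. Clones A04, A10, A01 and A02 form the R42A group, and 09, 30, 45 and 47 form the MD group, with 3 numbered RNA-seq libraries from each clone, so each genotype has 12 ESC libraries. Neural cells were made by 6 days in a neural medium (spelled RHA-B and RHB-A in different labels) from clones A04 and A10 for R42A and 09 and 30 for MD, with 2 libraries from each clone, so each genotype has 4 neural libraries. No line without a tagged allele was analysed here, so each comparison is of one tagged allele with the other, and clones are the replicates of a genotype. The labels do not say whether the numbered libraries of a clone are separate cultures. Consecutive library numbers fall into a first series (ESC clones A04, A10, 09 and 30), a second series (ESC clones A01, A02, 45 and 47) and a further series that holds every neural library. Stage and library series therefore cannot be told apart.

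In the mm10 build with GENCODE M21 annotation, the Zscan4 copies lie in a single cluster on chromosome 7. Zscan4a (ENSMUSG00000110097.1) is at chr7:10794242-10799057 on the minus strand and is annotated as an unprocessed pseudogene, while the other Zscan4 copies are annotated as protein coding. Zscan4b is at chr7:10900740-10905050 (minus), Zscan4c at chr7:11005745-11010547 (plus), Zscan4d at chr7:11161374-11166159 (minus), Zscan4e at chr7:11306378-11310682 (minus) and Zscan4f at chr7:11397915-11402318 (plus). Zfp352 is at chr4:90218820-90225702 (plus). Tcstv1 is at chr13:119893388-119894785 (minus) and Tcstv3 at chr13:120316878-120318178 (plus).

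The copies are close enough in sequence to share reads. Over the aligned GENCODE transcripts, pairs of Zscan4 copies were 96.6% to 99.7% identical. Zscan4b and Zscan4e were the closest pair, with 5 differences in 1722 aligned bases, followed by Zscan4c and Zscan4f with 9 in 1806. The 60-base stretch with the most differing columns (9) in the Zscan4 alignment is printed for all 6 copies, because it shows how few bases tell them apart. It lies in exon 4 of 4, in coding sequence in the protein-coding copies, and capitals mark bases unlike Zscan4c.
Zscan4a: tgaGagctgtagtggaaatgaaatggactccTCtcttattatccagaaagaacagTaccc
Zscan4b: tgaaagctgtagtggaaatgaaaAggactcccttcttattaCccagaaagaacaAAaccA
Zscan4c: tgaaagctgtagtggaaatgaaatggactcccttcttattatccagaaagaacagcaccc
Zscan4d: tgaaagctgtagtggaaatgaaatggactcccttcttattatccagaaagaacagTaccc
Zscan4e: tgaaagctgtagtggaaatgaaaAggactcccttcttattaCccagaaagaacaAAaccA
Zscan4f: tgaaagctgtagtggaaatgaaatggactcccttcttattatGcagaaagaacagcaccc
In this stretch Zscan4b (chr7:10901659-10901718) and Zscan4e (chr7:11307288-11307347) had the same letters, so a read that lies within it cannot be assigned to either one. Zscan4d (chr7:11162786-11162845) differed from Zscan4c (chr7:11009072-11009131) by 1 base, as did Zscan4f (chr7:11401265-11401324), at another position. Zscan4a (chr7:10795661-10795720) differed from Zscan4c by 4 bases. Of all 50-base windows along the transcripts, 49.6% of those of Zscan4d were also found in another gene, against 63.6% for Zscan4a, 85.5% for Zscan4c, 86.8% for Zscan4f, 89.0% for Zscan4e and 90.1% for Zscan4b. The division of counts among the copies is thus an estimate of the authors' quantifier and is uncertain. The sum of the 6 copies does not depend on how reads are divided among them, but each copy also shares windows with Zscan4-ps1, Zscan4-ps2, Zscan4-ps3, Gm17737 and Gm45551, which lie outside the sum, so the sum is an estimate as well.

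Tcstv1 and Tcstv3 are less alike, at 85.2% identity with 115 differences in 779 aligned bases, and a matching 60-base stretch shows this. Capitals mark bases of Tcstv1 (chr13:119893642-119893701, exon 1 of 1) unlike Tcstv3 (chr13:120317960-120318019, exon 2 of 2).
Tcstv1: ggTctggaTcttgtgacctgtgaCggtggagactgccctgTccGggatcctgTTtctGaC
Tcstv3: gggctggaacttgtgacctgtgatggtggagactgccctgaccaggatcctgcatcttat
Of the 50-base windows, 15.0% for Tcstv1, 31.4% for Tcstv3 and 7.1% for Zfp352 occurred in another gene, so the counts of these 3 genes can be separated better than those of the Zscan4 copies.

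Promoters from RefSeq (GRCm38.p6) are shown for 2 Zscan4 copies and for Zfp352, because the levels of these genes moved together across libraries while their promoter letters differ. Each is the 250 bases before the annotated start: chr7:10905051-10905300 (minus) for Zscan4b, chr7:11005495-11005744 (plus) for Zscan4c and chr4:90218570-90218819 (plus) for Zfp352. Capitals mark matches to TATAAA and to a paired motif of TGAT, any 2 bases and AATCA, both searched on both strands. The paired motif was chosen after the sequences had been seen.
Zscan4b: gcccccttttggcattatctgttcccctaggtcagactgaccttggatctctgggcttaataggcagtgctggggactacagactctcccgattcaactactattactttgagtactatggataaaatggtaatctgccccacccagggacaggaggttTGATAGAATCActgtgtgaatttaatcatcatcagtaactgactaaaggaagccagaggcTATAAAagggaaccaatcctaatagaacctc
Zscan4c: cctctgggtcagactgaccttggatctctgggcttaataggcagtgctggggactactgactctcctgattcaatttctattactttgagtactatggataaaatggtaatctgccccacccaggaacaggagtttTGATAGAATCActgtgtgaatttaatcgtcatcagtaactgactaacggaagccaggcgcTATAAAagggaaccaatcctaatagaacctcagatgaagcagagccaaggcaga
Zfp352: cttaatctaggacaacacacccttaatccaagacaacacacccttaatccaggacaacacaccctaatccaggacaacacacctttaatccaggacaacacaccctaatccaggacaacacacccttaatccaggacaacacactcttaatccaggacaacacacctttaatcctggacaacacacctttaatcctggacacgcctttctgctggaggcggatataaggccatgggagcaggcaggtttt
Both motifs were found once in each of the 4 Zscan4 promoters in the table (Zscan4b, Zscan4c, Zscan4d and Zscan4f), on the gene's own strand, with their first bases 60 bases apart and no overlap. TATAAA began 31 bases before the start in Zscan4b and Zscan4f, 54 in Zscan4c and 65 in Zscan4d, which follows the different annotated starts. Of 32851 RefSeq windows of the same length, 12.37% held TATAAA and 0.18% (58 windows) held the paired motif. The Zfp352 window held neither. These matches describe letters only.

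The libraries held 38699951 to 96424439 expected counts. In counts-per-million units (CPM), Smarce1 RNA was 93.6 to 130.1 CPM in the R42A ESC clones and 113 to 123 CPM in the MD ESC clones (log2 change 0.09 ± 0.09, edgeR adjusted p = 0.438). In neural cells it was 229 and 231 CPM in the R42A clones and 298 and 288 CPM in the MD clones (0.34 ± 0.09, edgeR adjusted p = 0.0293), and RNA is no check of a tag that acts on protein. The summed level of 7 ESC markers was 4443 to 6046 CPM in R42A and 3524 to 5134 CPM in MD ESC libraries. It was 243 to 254 and 313 to 341 CPM in the neural libraries, where 6 neural markers summed to 1357 to 1476 CPM in R42A and 1944 to 2020.2 CPM in MD, against 71.7 to 242 CPM in all ESC libraries. None of the marker genes was at 0 in any group. Levels and log2 changes below are on TMM-scaled library sizes, and the p-values measure only the spread between these clones.

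The Zscan4 copies were abundant in ESC of both genotypes, well above their partner genes. Per kilobase of exon, the mean level in R42A ESC was 47.6 ± 44.1 CPM per kb (SD, n = 4 clones) for Zscan4b, 40.2 ± 35.0 for Zscan4c, 31.7 ± 26.8 for Zscan4a, 29.4 ± 29.1 for Zscan4d, 24 ± 23.1 for Zscan4f and 21.9 ± 20.3 for Zscan4e. Below them came Tcstv3 at 3.29 ± 2.23, Zfp352 at 1.72 ± 1.28 and Tcstv1 at 0.263 ± 0.179 CPM per kb. The clone ranges of neighbours in this order overlapped except between Zscan4e and Tcstv3 and between Zfp352 and Tcstv1, yet within a library each step of the order held in 11 or 12 of 12 libraries. In MD ESC the order was the same except that Zscan4d (10.5 ± 5.49 CPM per kb) stood before Zscan4a (9.45 ± 4.46), which held in 10 of 12 libraries. Zscan4b led again at 15.1 ± 8.01 and Tcstv1 was again lowest at 0.189 ± 0.0759 CPM per kb.

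In ESC the Zscan4 copies were on average lower in MD than in R42A, and a single R42A clone, A04, carried much of that difference. Summed over the 6 copies, the A04 libraries had 729, 793 and 1193 CPM and the A10 libraries, of the same genotype and library series, 124, 135 and 112 CPM. The MD clones of that series had 117, 167 and 150.5 CPM (09) and 174, 238 and 239 CPM (30). So A04 stood far above every other clone, and A10 lay at or below the MD clones beside it.

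In the second library series the genotypes separated. Summed Zscan4 was 358, 225 and 369.8 CPM in A01 and 242, 188 and 260.4 CPM in A02. It was 70.6, 44.8 and 76.1 CPM in 45 and 100.1, 89.0 and 109 CPM in 47. Every R42A library of this series was above every MD library. Over all clones the R42A mean was 402 ± 368 CPM (SD, n = 4 clones; libraries from 112 through a median of 251 to 1193) and the MD mean 130.0 ± 65.1 CPM (n = 4; 44.8, 113 and 239). The 2 ranges overlapped, and in bulk RNA fewer cells in the 2-cell-like state and less RNA per such cell cannot be told apart.

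**Figure D1:**
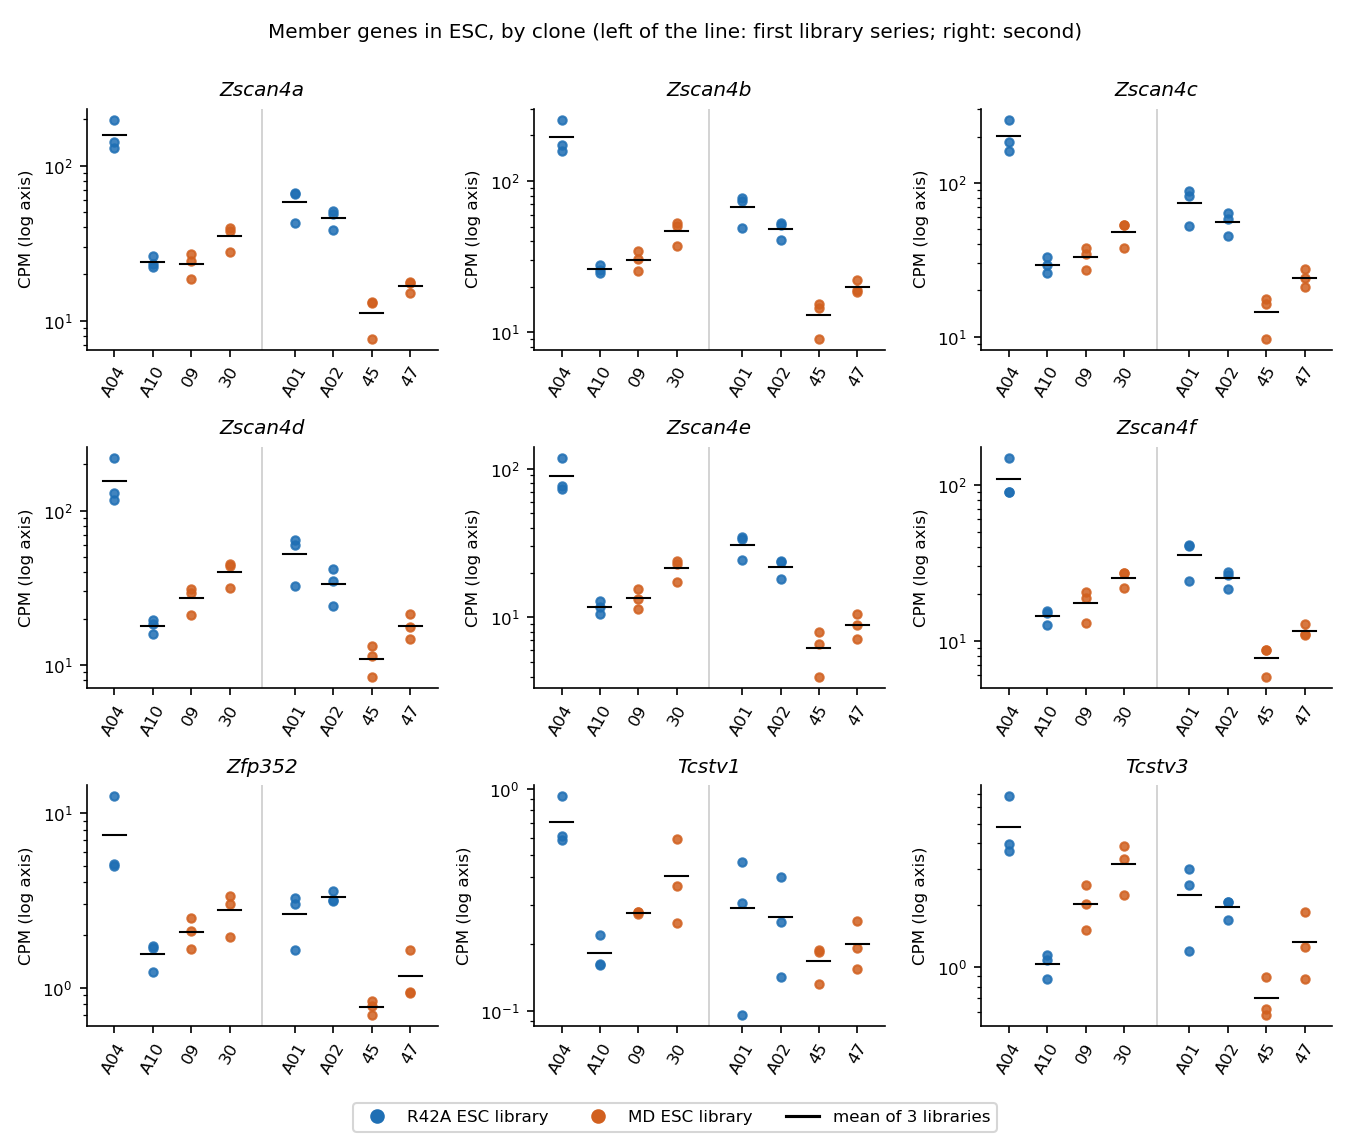
Level of each of the 9 genes in every ESC library (points, CPM on a log axis) by clone, with the clone mean as a line, for 4 R42A clones (A04, A10, A01, A02) and 4 MD clones (09, 30, 45, 47). A04 is the highest clone for each gene, with summed Zscan4 of 729 to 1193 CPM, and A10, at 112 to 135 CPM, sits beside or below 09 and 30.

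Single copies showed the same clone pattern. Zscan4c, a copy often used as the reporter of the 2-cell-like state, had 162, 183 and 257 CPM in A04, 29.3, 32.8 and 25.8 in A10, 82.2, 52.4 and 88.0 in A01 and 57.9, 44.9 and 63.5 in A02. Its MD values were 27.0, 37.8 and 34.3 CPM in 09, 37.9, 53.1 and 53.4 in 30, 16.3, 9.74 and 17.5 in 45 and 27.6, 21.0 and 24.1 in 47. A04 was again highest, and A10 fell among the MD clones. The genotype means for Zscan4c were 91.5 ± 79.6 CPM in R42A and 29.7 ± 14.0 CPM in MD (SD, n = 4 clones).

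Of the 9 genes, 6 were lower in MD ESC and none was higher at an adjusted p under 0.05 in edgeR's quasi-likelihood test, which used clone sums and a term for the library series. Over all 21567 genes tested, 19.4% were called lower and 17.1% higher, so calls were common in this comparison. Genes of chromosome 8 had a median log2 change of -0.45 and those of chromosome 11 one of 0.45, while the other autosomes lay between -0.14 and 0.01. With scaling factors taken without these 2 chromosomes, 3363 genes were lower and 4419 higher, in place of 4182 and 3680, and 5 of the 9 genes were lower, Zfp352 being lost (edgeR adjusted p = 0.053). The median log2 change was -1.61 over the 9 genes and -0.03 over all tested genes. Without A04 none of the 9 was called (log2 changes from -1.14 to 0.01, edgeR adjusted p from 0.104 to 0.99), where 15.9% of all genes were called lower. Without A10 all 9 were (-2.09 to -0.78, edgeR adjusted p from 6.43e-05 to 0.0193), where 19.9% of all genes were.

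The called genes were Zscan4a, Zscan4b, Zscan4c, Zscan4e, Zscan4f and Zfp352. Zscan4a had the lowest adjusted p of them, with a log2 change of -1.78 ± 0.48 (SE, edgeR adjusted p = 0.0183). Zscan4c changed by -1.65 ± 0.49 (edgeR adjusted p = 0.0274), and Zscan4b, Zscan4e and Zscan4f lay between -1.71 and -1.61 with adjusted p of 0.0283 to 0.0337 in edgeR. Zscan4d, at -1.50 ± 0.54, did not pass (edgeR adjusted p = 0.0557). Its value differed from those of the called copies by less than 1 SE.

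The calls also depended on other single clones. With 09, 45 or A01 left out, none of the 9 genes was called, the lowest edgeR adjusted p being 0.0567, 0.0712 and 0.0643. Of all genes, 2925 of 21569, 3890 of 22105 and 3397 of 22160 were called lower in these fits. With 30 left out 3 were called (Zscan4a, Zscan4b and Zscan4e), and with 47 or A02 left out Zscan4a alone was (edgeR adjusted p of 0.047 and 0.044). Lower calls over all genes were then 3173 of 21547 (without 30), 3068 of 22090 (without 47) and 3220 of 22155 (without A02). None was called without the low-count filter (lowest edgeR adjusted p = 0.115) or without the library series term (0.0742). Over all genes 4098 of 35409 and 1427 of 21567 were called lower there. All log2 changes of the 6 Zscan4 copies and Zfp352 remained negative when any single clone was left out. For summed Zscan4 the log2 change was -1.66 with all clones, -0.97 without A04 and -1.97 without A10, with no test.

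**Figure D2:**
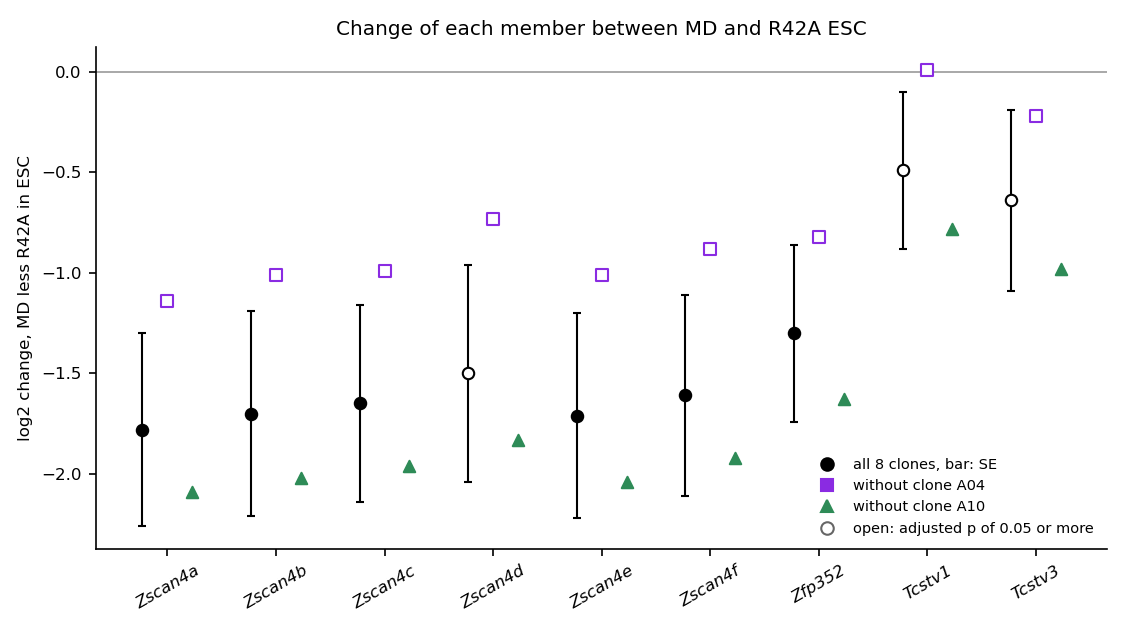
Log2 change (MD less R42A, ESC) for each of the 9 genes with all 8 clones (circles, bars are the SE), without A04 (squares) and without A10 (triangles); filled points passed an edgeR adjusted p of 0.05 and open points did not. Without A04 all points are open and lie between -1.14 and 0.01, and without A10 all are filled and lie between -2.09 and -0.78.

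Zfp352 followed the Zscan4 copies at a lower level. Its libraries had 4.96, 5.11 and 12.5 CPM in A04, 1.73, 1.69 and 1.22 in A10, 3.03, 1.63 and 3.27 in A01 and 3.15, 3.58 and 3.17 in A02. The MD libraries had 1.67, 2.11 and 2.5 CPM in 09, 1.96, 3.02 and 3.34 in 30, 0.787, 0.696 and 0.842 in 45 and 0.929, 0.938 and 1.63 in 47. A04 was highest, A10 was within or below the range of 09 and 30, and the genotypes overlapped over all clones. The log2 change was -1.30 ± 0.44 (SE, edgeR adjusted p = 0.0451), from means of 3.91 ± 2.92 CPM in R42A and 1.69 ± 0.877 CPM in MD (SD, n = 4 clones).

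The Tcstv genes differed less between genotypes and did not pass the test. Tcstv3 had 3.97, 3.69 and 6.81 CPM in A04, 1.14, 1.08 and 0.867 in A10, 2.52, 1.19 and 3.01 in A01 and 2.08, 1.7 and 2.08 in A02. In MD it had 1.51, 2.03 and 2.52 CPM in 09, 2.25, 3.37 and 3.89 in 30, 0.581, 0.623 and 0.895 in 45 and 1.84, 0.866 and 1.25 in 47. A04 was the highest clone for Tcstv3, but the mean of clone 30 was above those of A10, A01 and A02. The log2 change was -0.64 ± 0.45 (SE, edgeR adjusted p = 0.305).

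Tcstv1 was the lowest of the 9 genes. In R42A it ranged from 0.0957 CPM in a library of A01 to 0.925 CPM in a library of A04, and in MD from 0.132 CPM in 45 to 0.596 CPM in 30. The means were 0.368 ± 0.25 and 0.264 ± 0.106 CPM (SD, n = 4 clones), with overlapping clones and a log2 change of -0.49 ± 0.39 (SE, edgeR adjusted p = 0.36). For the 2 Tcstv genes summed, the log2 change was -0.62 with all clones and -0.19 without A04.

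The distance between clones of 1 genotype was largest between A04 and A10 for the median of the 9 genes. A04 exceeded A10 by 4.02 to 9.04 times over the 9 genes, with a median of 7.05, and exceeded A01 by 2.29 to 3.27 times. The other pairs within a library series and genotype were closer. Clone 30 was 1.27 to 1.57 times clone 09, clone 47 was 1.17 to 1.97 times clone 45, and A01 was 0.79 to 1.54 times A02. A10 was 0.5 to 1.03 times clone 09 and 0.34 to 0.69 times clone 30, so for these genes, with the exception of Zscan4a against clone 09, A10 lay below the MD clones of its series.

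By library series, 0 of 9 genes had both MD clones below both R42A clones in the first series, where 33.5% of all tested genes did. In the second series 9 of 9 did, where 32.3% of all tested genes did. Over both series none of the 9 had all MD clones below all R42A clones, against 10.3% of tested genes. The mean ratio of summed Zscan4, R42A over MD, was nevertheless close in the 2 series, at 2.98 and 3.36, because A04 raised the mean of the first. The difference of the genotype effect between the series was tested itself: 0 of 9 genes were called, with log2 differences from -0.87 to -0.11 and edgeR adjusted p from 0.931 to 0.99. In that test 0.0% of all genes were called higher and 0.0% lower, and 644 of 21567 had an unadjusted p under 0.05, none of the 9 among them.

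The 9 genes rose and fell together across ESC libraries. Over the 24 ESC libraries, Pearson r of log2(CPM + 0.1) was 0.97 to 1.0 between Zscan4 copies (15 pairs), 0.93 to 0.94 between a Zscan4 copy and Zfp352, 0.85 to 0.92 with Tcstv3 and 0.73 to 0.80 with Tcstv1. These points share clones and library series, the Zscan4 copies share reads, and Tcstv1 has few counts, so the values are a description.

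The copies kept nearly fixed proportions of the Zscan4 sum in ESC. In R42A the pooled shares were 22.6% for Zscan4c, 21.4% for Zscan4b, 17.8% for Zscan4a, 16.7% for Zscan4d, 11.8% for Zscan4f and 9.75% for Zscan4e. In MD they were 22.8%, 21.0%, 16.5%, 18.4%, 11.9% and 9.46% in the same order of genes. In the pooled counts the pseudogene Zscan4a thus took a larger share than the coding copy Zscan4d in R42A and a smaller one in MD. This did not hold in each clone. In A04 Zscan4a had 17.2% and Zscan4d 17.4%, and in 45 they had 17.8% and 17.2%. Zscan4d, the copy with the most sequence of its own and known as the main copy of the 2-cell embryo, ranged from 12.9% to 18.4% over R42A libraries and from 16.1% to 19.6% over MD libraries. Its clone shares were 17.4% in A04, 14.6% in A10, 16.4% in A01 and 14.6% in A02, against 18.9% in 09, 18.5% in 30, 17.2% in 45 and 18.1% in 47, so the clones of the genotypes overlapped only between A04 and 45.

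**Figure D3:**
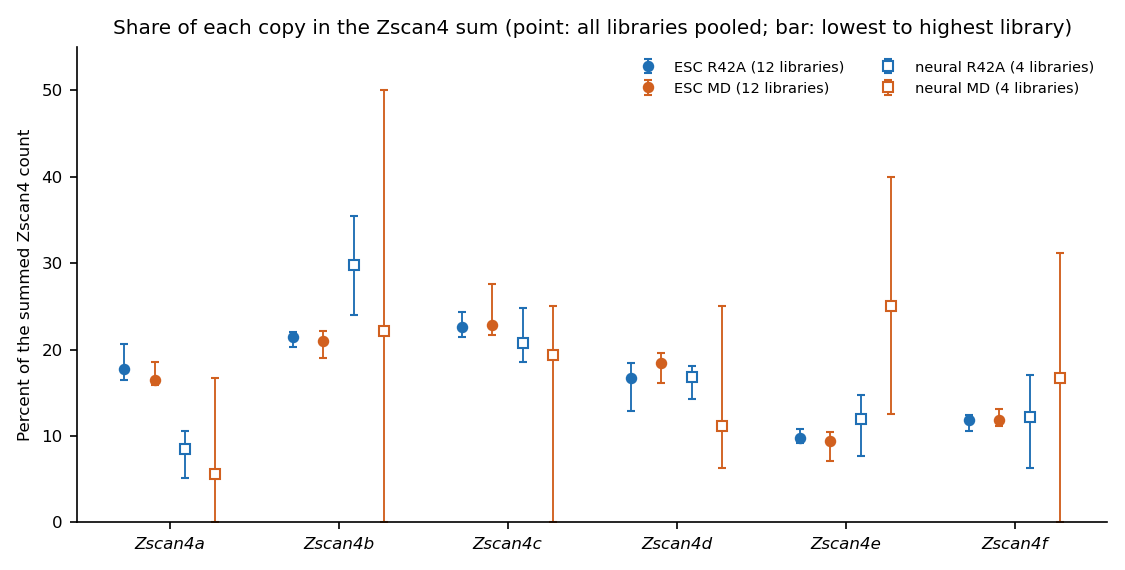
Share of each Zscan4 copy in the summed Zscan4 counts (percent), by genotype and stage; points are shares of the pooled counts and bars run from the lowest to the highest library. ESC shares of Zscan4c are 22.6% in R42A and 22.8% in MD, and in R42A neural cells that of Zscan4a is 8.47% and that of Zscan4b 29.8%.

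All 9 genes were lower in neural cells than in ESC of the same clones, in both genotypes. Summed Zscan4 in neural libraries was 2.98 and 2.17 CPM in A04, 2.49 and 2.1 CPM in A10, 0.152 and 0.238 CPM in 09 and 0.0911 and 0.0831 CPM in 30. Every neural library was far below every ESC library, where the lowest had 44.8 CPM. Over clones A04 and A10 the counts were 229894 in ESC and 567 in neural cells, a depth-scaled ratio of 211 (95% Clopper-Pearson interval 195 to 230). Over clones 09 and 30 they were 71084 and 36, a ratio of 1213 (876 to 1732). These intervals cover counting error only.

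In the fit of 4 groups (ESC of the first series and neural cells, no clone term), 9 of 9 genes fell in R42A neural cells. Their log2 changes ran from -8.84 to -5.46, with edgeR adjusted p from 0.000225 to 0.00143. Of the 23844 genes tested there, 40.4% were lower and 37.9% higher. In MD 9 of 9 fell as well, where 41.0% of tested genes were lower and 40.3% higher, with edgeR adjusted p from 0.000321 to 0.00244. All 9 passed the low-count filter of this fit, and Zfp352, Tcstv1 and Tcstv3 did so only through their ESC counts, since they did not pass it among neural libraries alone. The median over the 9 genes was -7.78 in R42A and -9.79 in MD with Tcstv3 at its bound (-10.23 as fitted), beside -0.06 and -0.02 over all genes. In MD, Tcstv1 lost its call when clone 30 was left out (edgeR adjusted p = 0.0583), and no other call of the 9 genes was lost in either genotype when a clone or library was left out.

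Zscan4a dropped by a log2 change of -8.84 ± 1.11 (SE, edgeR adjusted p = 0.000225) in R42A, the largest fitted change of the 9 there, and had 2 counts in the MD neural libraries. Zfp352 dropped least in R42A, by a log2 change of -5.46 ± 0.87 (edgeR adjusted p = 0.000799). Its neural libraries had 0.167 and 0.118 CPM in A04, 0.0622 and 0.108 in A10, 0.0152 and 0 in 09 and 0 in both libraries of 30. All R42A neural libraries held Zfp352 counts, and 1 of 4 MD libraries did, with 1 count. The ratio of ESC to neural Zfp352 was 42.2 (28.7 to 64.8) in R42A and 589.8 (106 to 23319.5) in MD, where it rests on that count.

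The Tcstv genes were nearly absent from neural libraries. Tcstv1 had 1 count over the R42A neural libraries and 2 over the MD ones, and Tcstv3 had 2 and 0. Tcstv3 was 345 times higher in ESC than in neural cells in R42A (95.4 to 2854), and in MD its level was at least 208-fold lower in neural cells, taking 3 counts over the group as the floor. Tcstv1 was 104 times higher in R42A ESC (18.5 to 4140) and 41.8 times higher in MD ESC (11.3 to 348).

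**Figure D4:**
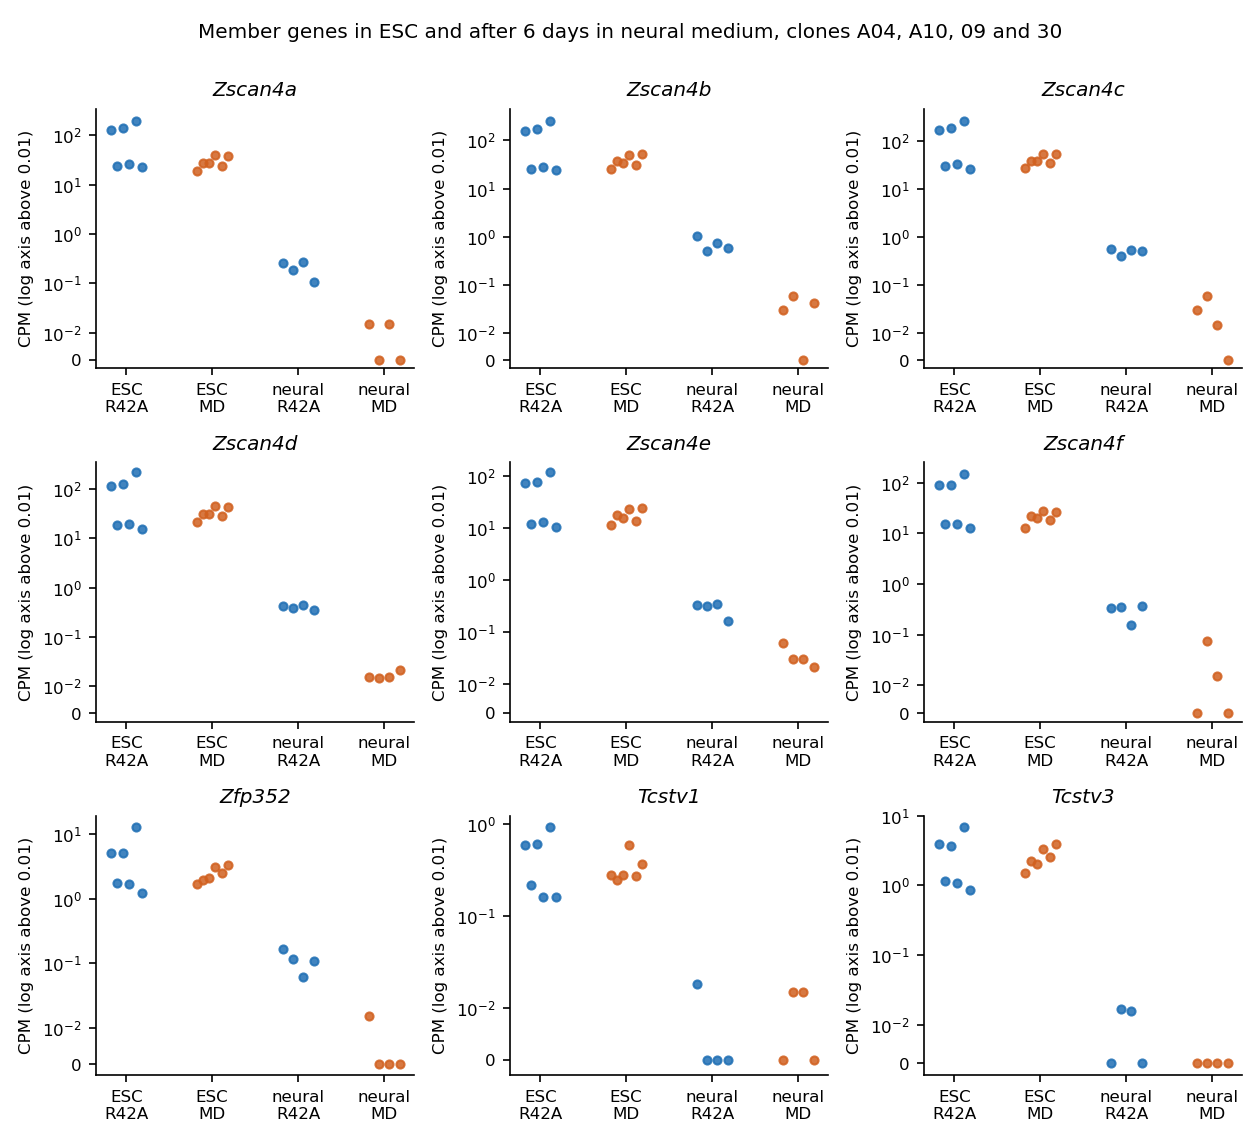
Level of each gene (CPM, log axis above 0.01 and linear below it to 0) in ESC and neural libraries of clones A04, A10, 09 and 30. Neural libraries lie below ESC libraries for every gene, and for the Zscan4 copies the R42A neural libraries (2.1 to 2.98 CPM summed) lie above the MD ones (0.0831 to 0.238 CPM).

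Within neural cells the Zscan4 copies and Zfp352 had fewer counts in MD than in R42A, at few counts in either. Summed Zscan4 averaged 2.43 ± 0.175 CPM in R42A and 0.142 ± 0.0762 CPM in MD (SD, n = 2 clones), a ratio of the means of 17.2. The pooled counts were 567 and 36, a depth-scaled ratio of 16.6 (95% Clopper-Pearson interval 11.9 to 24). A04 and A10, far apart as ESC, were close as neural cells, where A04 was 0.92 to 1.69 times A10 over the genes compared.

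The single copies all had the lower count in MD. R42A and MD neural counts were 48 and 2 for Zscan4a, 169 and 8 for Zscan4b, 118 and 7 for Zscan4c, 95 and 4 for Zscan4d, 68 and 9 for Zscan4e and 69 and 6 for Zscan4f. The ratios ran from 7.99 (3.97 to 18.2) for Zscan4e to 25.4 (6.65 to 215) for Zscan4a. Zfp352 had 26 and 1 counts, a ratio of 27.5 (4.51 to 1127). Of the 9 genes, 8 had both MD clones below both R42A clones, which held for 38.0% of all genes tested, and Tcstv1 did not. The 8 include Tcstv3, which had only 2 counts in R42A and 0 in MD.

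In the fit of 4 groups, 0 of 9 genes were called different between the neural genotypes in edgeR, and none had an unadjusted p under 0.05. Over all genes 16.3% were called lower and 17.4% higher. This fit had no clone term, although its ESC and neural sums came from the same clones, and each gene's spread was shared over the 4 groups. That spread takes in the ESC distance between A04 and A10 (4.02 to 9.04 times), while as neural cells A04 was 0.92 to 1.69 times A10. The 6 Zscan4 copies and Zfp352 had log2 changes between -4.59 and -2.98, with SEs of 2.05 to 3.21 and edgeR adjusted p from 0.134 to 0.328. Zscan4a and Zfp352 had 2 and 1 counts in MD, so their fitted changes are not measured sizes. The tools differed here. A fit of the neural clone sums alone tested 6 of the 9 genes, the Zscan4 copies. It called all 6 lower (edgeR adjusted p from 3.04e-12 to 6.5e-07), where 32.8% of all genes were called lower. These copies passed the low-count filter only through their R42A counts, since no MD clone held more than 6 counts of a copy. Their small p-values are therefore not separate support. DESeq2 on the 4 groups called 7 lower (lowest adjusted p = 0.000382), where 18.1% of all genes were. In edgeR, Zfp352 alone was called without A04 (adjusted p = 0.00634) or without A10 (0.00104), fits in which the remaining R42A clone is assumed to vary like the other groups. For Tcstv1 and Tcstv3 both groups were at or under 3 counts, so no fold is given.

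Several marker lists differed between the neural genotypes. The 7 ESC markers summed to 313 to 341 CPM in MD neural libraries and 243 to 254 CPM in R42A ones, while summed Zscan4 was higher in R42A. Most of this ESC marker sum was Sox2 (mean 209.5 CPM in R42A, 286 in MD). Pou5f1 (9.9 and 8.84) and Klf4 were lower in MD, while Nanog, Zfp42, Esrrb and Dppa5a were higher. The sum of the 6 neural markers was also higher in MD, at 1944 to 2020.2 CPM against 1357 to 1476 CPM, but its members were split. Nes (mean 590.4 CPM in R42A, 286 in MD) and Sox1 (173 and 125) were lower in MD. Tubb3 (275 and 599.9), Map2, Dcx and Pax6 were higher in MD. Like Zscan4, the summed trophectoderm markers (5 genes) were higher in R42A neural libraries, at 134 to 158 CPM against 106 to 115 CPM. So were the summed primitive endoderm markers (5 genes), at 189.9 to 237 CPM against 109 to 142 CPM. The summed mesenchyme markers (4 genes) had 189 to 210.3 CPM against 70 to 74.5 CPM. That sum followed Acta2 (mean 82.1 CPM in R42A, 3.89 in MD) and Tagln (104 and 3.7). Col1a1 (6.96 and 28.4) and Col3a1 (9.93 and 37.2) were higher in MD. Of the trophectoderm markers, Tfap2c (22.5 and 38.8) and Elf5 (0.069 and 0.0821) were also higher in MD. In ESC, the summed trophectoderm markers were 41.0 to 79.2 CPM in R42A and 85.5 to 327 CPM in MD libraries, and mesenchyme markers 2.74 to 20.0 CPM and 27.8 to 203 CPM. Their part in the Zscan4 differences was not tested.

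Whether the genotype effect on the 9 genes differs between stages was tested in the same fit, which had no clone term. None of the 9 was called, where 11.9% of all genes were higher and 11.1% lower. Zscan4b to Zscan4f, the genes with more than 3 counts in every group, had differences of -3.18 to -1.40 on the log2 scale, and over the 6 Zscan4 copies and Zfp352 the edgeR adjusted p was 0.317 to 0.725. Zfp352, with its 1 count in MD neural cells, was called in the direction of a stronger loss in neural cells when A04 (edgeR adjusted p = 0.00351) or A10 (0.0307) was left out.

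In R42A neural cells the copies had other proportions than in ESC. Zscan4a made up 8.47% of 567 counts (5.13% to 10.6% over libraries), against 16.5% to 20.6% over the R42A ESC libraries. Zscan4b made up 29.8% (24% to 35.4%), against 20.3% to 22.0%. The library ranges of both copies did not overlap between stages. By level Zscan4b led here as it did in ESC, at 0.402 ± 0.0395 CPM per kb (SD, n = 2 clones), followed by Zscan4c at 0.222 ± 0.0125. Zscan4a was the lowest copy at 0.0903 ± 0.00889. With 36 counts in all MD neural libraries, shares there could not be resolved.

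Other genes of the 2-cell-like state had a negative median change in MD ESC, with calls in both directions. Of 62 other 2-cell genes listed, 60 were in the tables and 54 were tested. Of these, 19 were lower in MD and 9 higher in edgeR, with a median log2 change of -1.03, beside 19.4% lower, 17.1% higher and -0.03 over all genes. The share of higher calls was thus near that over all genes. The list holds Zscan4-ps1, Zscan4-ps2 and Zscan4-ps3, which share reads with the Zscan4 copies. Without A04, 1 was lower and 10 higher (median -0.57), and without A10, 41 were lower and 11 higher (median -1.35). The lower calls also went down to 1 without 09, 2 without 45, 3 without A02, 6 without A01, 6 without 47, 2 without the low-count filter, 2 without the library series term and 0 in the first series alone, so they depended on most single clones, as those of the 9 genes did.

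The listed 2-cell genes with the lowest adjusted p were higher in MD. Pramel7, a leucine-rich repeat gene of the PRAME family expressed in early embryos and naive ESC, averaged 0.603 CPM in R42A and 5.1 CPM in MD ESC (log2 change 3.12 ± 0.27, edgeR adjusted p = 8.6e-05). Trim43b, of a TRIM family active in the early embryo, rose from 0.149 to 0.864 CPM (2.50 ± 0.34, edgeR adjusted p = 0.000746). The homeobox genes Duxbl1 (1.24 ± 0.14, edgeR adjusted p = 0.000291) and Duxbl3 (1.35 ± 0.15, edgeR adjusted p = 0.00033) were also higher, and as near-identical family members they may share reads. These 4 genes thus moved against the Zscan4 copies. They were named for their low adjusted p, and nearly all higher calls of the list came from the Duxbl, Trim43 and Pramel families.

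Of 11 tested genes listed here as activators of the 2-cell-like state, 4 were lower and 2 higher in MD ESC (median log2 change -0.31). Whether each listed gene, Tet1 and Tet2 included, activates the state in these cells was not tested. Over all genes tested, 19.4% were lower and 17.1% higher. Without the library series term 1 activator was lower and 0 were higher. Tbx3, a T-box factor that promotes Zscan4 expression, fell from 80.5 to 30.9 CPM (-1.40 ± 0.10, edgeR adjusted p = 4.49e-05). The DNA demethylases Tet2 (-0.57 ± 0.10, edgeR adjusted p = 0.00257) and Tet1 (-0.31 ± 0.06, 0.00385) and the elongation factor subunit Nelfa (-0.39 ± 0.10, 0.014) were lower too. Duxf3, the mouse Dux gene, named here after its values had been seen, had 1.47 CPM in A04, 0.358 in A10, 1.35 in A01 and 1.51 in A02, against 0.552 in 09, 0.659 in 30, 0.534 in 45 and 0.647 in 47. A10 was thus the lowest clone for Duxf3 and the other R42A clones the highest, and the log2 change of -0.93 ± 0.39 did not pass (edgeR adjusted p = 0.0891). Dppa2 (0.05 ± 0.20, edgeR adjusted p = 0.86) and Dppa4 (-0.02 ± 0.09, 0.909), which act upstream of Dux and were also chosen after their values were seen, did not pass.

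Of 24 repressors of the state, 6 were higher and 4 lower in MD ESC, with a median of -0.01. These shares lie near those over all genes tested (17.1% higher and 19.4% lower), and without the library series term 3 were higher and 0 lower. Sumo2, whose product is attached to chromatin repressors, rose by 0.49 ± 0.05 (log2, edgeR adjusted p = 0.000156), and it lies on chromosome 11. The RNA-binding protein gene Lin28a (0.54 ± 0.09, edgeR adjusted p = 0.00209) and the histone methyltransferase gene Ehmt1 (0.27 ± 0.05, 0.00283) were higher, and the deacetylase gene Hdac2 (-0.23 ± 0.04, 0.00359) was lower.

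Of 18 tested telomere maintenance genes, 8 were lower and 2 higher (median -0.18), beside 19.4% and 17.1% of all genes. The lower count was 2 without the library series term and 0 in the first series alone. The shelterin gene Terf1 was higher (0.37 ± 0.06, edgeR adjusted p = 0.00113). Its partners Terf2 (-0.52 ± 0.09, edgeR adjusted p = 0.00197) and Acd (-0.44 ± 0.08, 0.00251) and the helicase gene Blm (-0.30 ± 0.05, 0.00175) were lower. Terf2 and Acd lie on chromosome 8, whose genes had a median of -0.45. Without A04, 7 were lower and 2 higher.

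**Figure D5:**
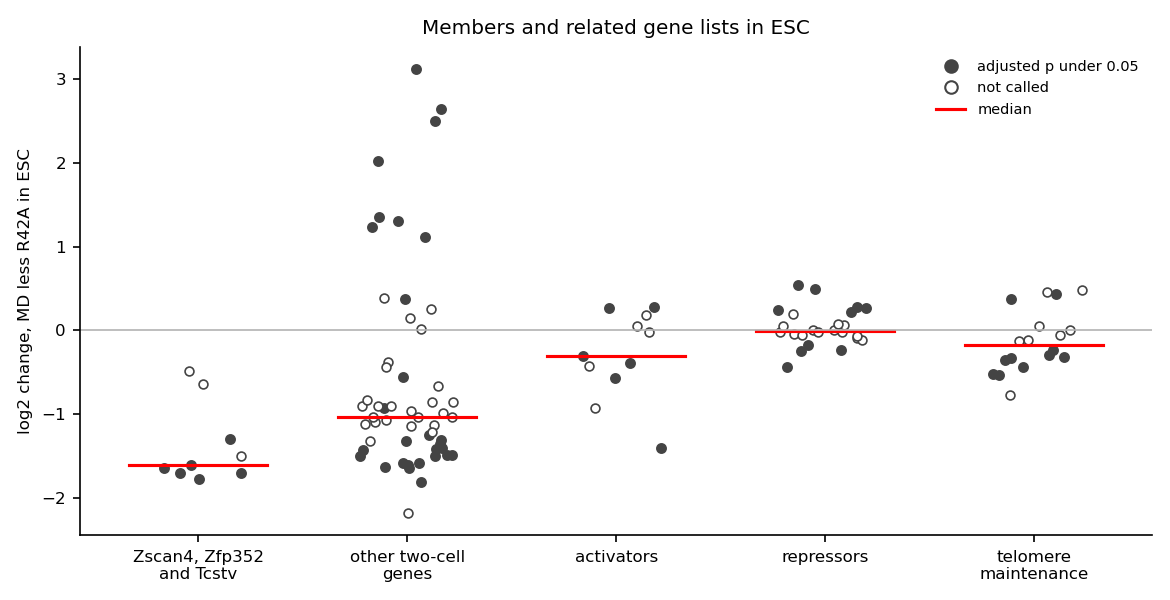
Log2 change (MD less R42A, ESC) of each tested gene in the 9 genes and the 4 lists; filled points passed an edgeR adjusted p of 0.05, and the red line is the median. The 9 genes have a median of -1.61 and the other 2-cell genes one of -1.03 with points on both sides of 0, while the medians of activators (-0.31), repressors (-0.01) and telomere genes (-0.18) are nearer to 0.

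In neural cells, of the 54 other 2-cell genes 1 was lower and 1 higher in MD by the fit of 4 groups (median -1.97), while DESeq2 called 19 lower and 2 higher. Between the stages, 48 of 54 were lower in neural cells in R42A and 48 in MD, with 3 and 2 higher. Over all genes, 40.4% and 41.0% were lower. Among neural clones alone only 25 genes of this list passed the low-count filter. The rest passed it through their ESC counts, so for them a lower call was nearly set beforehand. Of the 11 activators, 10 were lower in neural cells in each genotype. Of the 24 repressors, 11 were lower and 10 higher in R42A. Among repressors in neural cells, 9 were lower and none higher in MD than in R42A (median -0.14), beside 16.3% and 17.4% of all genes, and 1 was lower when 09 or 30 was left out.

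The genes whose pattern was most like that of summed Zscan4 were found among 20114 genes with a mean of at least 0.1 CPM, by Pearson r of log2(CPM + 0.1) over the 24 ESC libraries after taking each gene's clone mean out. The 10 with the highest r were Zscan4-ps3 and Zscan4-ps2 (0.99), Gm16478, Gm2016 and Gm21037 (0.96), Gm20765, Zscan4-ps1 and Gm13696 (0.95), Gm5039 (0.94) and Gm8300 (0.93). Of these, 5 lie on chromosome 7. The 3 Zscan4-ps genes lie within or beside the Zscan4 cluster, while Gm21037 (from chr7:51152817) and Gm16478 (from chr7:51170517) lie far from it. On the list of other 2-cell genes are 5 of the 10, and the 3 Zscan4-ps genes share 50-base windows with the Zscan4 copies. Zscan4-ps2 averaged 71.2 CPM, a level like that of single Zscan4 copies. All 10 were called lower in MD ESC (log2 changes from -1.81 to -1.23), where 19.4% of all genes were. None was called without A04 (-1.14 to -0.78, edgeR adjusted p from 0.115 to 0.263), where 15.9% of all genes were called lower.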

How the data were processed

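RNA-seq was measured in 32 libraries of mouse ESC and neural cells. Per the submitters' processing notes, which give no order or role, the tools included RSEM 1.3.0, the aligner STAR 2.7.1a, Trim Galore 0.60 and also DESeq2, and the build was mm10. The annotation release and strand setting were not given in the sources used here. The authors deposited RSEM expected counts, not normalized, for 55573 genes besides 92 spike-in entries that were all 0. In each library 1.46% to 1.70% of genes had a value that was not whole (tolerance 1e-06). RSEM divides reads that fit several genes among them by estimation, which bears on the Zscan4 copies.

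These values were rounded to integers, and each clone's libraries were then added up. R 4.3.3 and edgeR 4.0.16 were used: filterByExpr (minimum count 10), TMM, the quasi-likelihood F-test and Benjamini-Hochberg adjustment over all genes tested, with a threshold of 0.05. The ESC fit had terms for library series and genotype. The neural, stage and stage-difference contrasts came from 1 fit of 4 groups on the clones A04, A10, 09 and 30. It had no term for the clone, so the pairing of a clone's ESC and neural sums was not used. The SE is the log2 change divided by the square root of F. CPM per kb divides by the union of GENCODE M21 exons. Transcripts were aligned with mafft 7.526. Ratios of counts have 95% Clopper-Pearson intervals. A group with 3 counts or fewer was taken as at the floor, and where both groups were, no fold was given. The procedure was tested on data simulated from the real genes. For the ESC comparison 93.5% of 2-fold and 100.0% of 4-fold changes were called, and for the neural comparison 67.3% and 91.8%. There every gene had the same small fixed spread, and only genes above a minimum count were changed. The 9 genes varied more (summed Zscan4 402 ± 368 CPM in R42A ESC, SD) and had few neural counts. These shares therefore do not give the power for them.

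All 9 genes are named. Of each list, up to 4 genes are named, those with the lowest adjusted p in ESC, and exceptions are marked. The likeness genes are the 10 with the highest r. The members and lists were chosen with earlier results of these data known. Alternatives were DESeq2 1.42.0, TMM without chromosomes 8 and 11 (whose genes differ as a whole between the genotypes), no low-count filter, single libraries with and without a replicate block, each library series alone, no library series term, the neural clones alone, and leaving out each clone or library.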

Additional observations from a re-analysis of the deposited data

Results flagged for a closer look

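In groups of 4 to 10 values, the highest or lowest was compared with the rest by Dixon's ratio, over 39 groups (libraries of neural cells and clones of ESC). Chance marks about 1 group in 20, and 5 were marked, all neural and all resting on few counts. In the neural R42A libraries, Zscan4e was low in A10 library 2 (0.161 CPM, 9 counts), Zscan4f was low in A10 library 1 (0.155 CPM, 10 counts), and Tcstv1 had its only count in A04 library 1 (0.0185 CPM). In the neural MD libraries, Zscan4d was marked in clone 30 library 2 (0.0208 CPM, 1 count). Each of the 4 libraries held 1 Zscan4d count, and this one had the lowest depth, so the mark reflects depth. Zfp352 had its only count in 09 library 1 (0.0152 CPM). A gene with counts in a single library, as Tcstv1 and Zfp352 here, is always marked. No ESC clone passed the limit for 4 values, A04 included.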

How the results depend on the processing

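Without a term for the library series 3084 genes were called in ESC, in the first series alone 1769 and in the second alone 4878, against 7862 with all clones. The neural clone sums alone gave 13643 calls, against 8030. For the difference between library series, DESeq2 called 6 genes, no low-count filter 1, single libraries 13, and single libraries with the replicate block 13. With 1 clone or library left out, calls ranged from 5745 to 9329 in ESC and from 0 to 0 for the difference between series. They ranged from 1538 (without 30; 1600 without 09) to 9967 in neural cells, from 77 (without 09; 114 without 30) to 8759 (without A04) for the difference between stages, from 17072 to 18652 for stage in R42A and from 14428 to 20978 for stage in MD.

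Directions reversed only when a clone or library was left out. Tcstv1 ranged from -0.78 to 0.01 in ESC and from -0.11 to 3.53 in neural cells. For the difference between series, log2 values ranged from -2.21 to 0.5 (Zscan4a), -2.39 to 0.51 (Zscan4b), -2.23 to 0.54 (Zscan4c), -2.49 to 0.64 (Zscan4d), -2.41 to 0.53 (Zscan4e), -2.22 to 0.7 (Zscan4f), -2.28 to 0.06 (Zfp352) and -1.51 to 0.45 (Tcstv1). The cause was not tested.

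Of the 9 genes, DESeq2 called 6 lower in ESC, TMM without chromosomes 8 and 11 called 5, the second series alone 6 and the first series alone 0 (lowest edgeR adjusted p = 0.293). In the same order, 4468 of 24425, 3363 of 21567, 2248 of 21039 and 739 of 22578 of all genes were called lower. Among the 10 likeness genes, 9 were shared with raw log2 values and 9 with a pseudocount of 1 CPM. Same-numbered libraries of different clones had median correlations of 0.12, 0.26 and 0.06 in the 3 series, against -0.06, -0.09 and -0.06 for other numbers. The lowest same-number values were -0.57, -0.06 and 0.03, not all over 0.1, so the numbers were not taken as pairs, although in the second series summed Zscan4 was lowest in library 2 and highest in library 3 of each clone. Fits of single libraries gave 7 lower calls among the 9 genes in ESC and 1 in neural cells. With the replicate block they gave 7 and 0. Over all genes, 4989 of 18306 were lower in ESC and 4029 of 21321 in neural cells without the block. These fits take the libraries of a clone as replicates of a genotype, although clones are the replicates, so they overstate the evidence. In the neural MD libraries depth is limiting, with 36 Zscan4 counts in all.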
